A study of Drosophila melanogaster with 12 samples.

Results

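The genes described here are 10 genes of the insulin signalling pathway of Drosophila melanogaster, taken by name and not by any measured value, out of 14413 counted features of which 13240 are single genes. They are the insulin-like peptides Ilp2, Ilp3, Ilp5 and Ilp6, the insulin-binding protein ImpL2, the receptor InR, the adaptors chico and Lnk, the transcription factor foxo and its target Thor. RNA was sequenced from whole flies of the strain iso31, with 3 samples in each of 4 groups and 10 male and 10 female flies pooled in every sample. Control flies lived for 2 or 3 weeks on an LD 12:12 schedule, which repeats every 24 h. Flies under chronic circadian misalignment (CCM) spent the same weeks on LD 14:14, in which day and night last 14 h each and a cycle takes 28 h. All flies were kept singly in glass tubes on sucrose and agar from about the time of eclosion, so the food was shared by the groups. Their RNA was taken at ZT0 to ZT3, where ZT0 is lights-on. Lights-on followed 14 h of dark in CCM flies and 12 h in controls, so the time from lights-on was shared but not the time since the last light. The study names more activity before collection, and feeding tied to it, as possible sources of some changes in CCM flies, and this was not tested here. Males and females cannot be separated in these pools, and whole bodies cannot show whether fewer cells of a type or less RNA per cell lies behind a lower value.

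In flies, Ilp2, Ilp3 and Ilp5 are made mainly by a cluster of neurosecretory cells in the brain, while Ilp6 is made mainly by the fat body, the counterpart of liver and adipose tissue. The peptides bind a single insulin receptor, which passes the signal through the substrate chico and the adaptor Lnk to PI3 kinase, AKT and TOR, and active AKT keeps the transcription factor foxo out of the nucleus. When insulin is low, foxo enters the nucleus and raises Thor, the fly 4E-BP that restrains cap-dependent translation, as well as InR itself. The pathway is known for coupling nutrition to growth, reproduction and lifespan.

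On the dm6 assembly Ilp2 (3L:9799698-9800440), Ilp3 (3L:9801298-9802120) and Ilp5 (3L:9823349-9823897) belong to a cluster of peptide genes, with 857 bases between Ilp2 and Ilp3. Ilp2 and Ilp3 lie inside the larger gene CG32052 and Ilp5 inside CG43897, and none of the 3 shares exonic bases with another coding gene. Ilp6 (X:2331493-2334658) overlaps Raf, which runs on the opposite strand, again with 0 exonic bases in common. ImpL2 (3L:4224006-4236147) shares 1651 of its 2667 exonic bases with CG46460 on the same strand in the annotation used here for positions. No merged gene in the counts held ImpL2. Whether the annotation used for counting had CG46460 is not known, so how far this touched the counts of ImpL2 is not known either. InR (3R:21570248-21619321), Lnk (3R:25888542-25893270) and foxo (3R:14056945-14087978) are on chromosome arm 3R. Chico (2L:10242512-10247078) and Thor (2L:3478434-3479612) are on arm 2L. Exonic length differs widely among the genes, from 478 bases for Ilp5 to 11367 for InR, and that range bears on several results because the level of long genes relative to short ones differed between libraries.

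Between 17842804 and 23687266 reads were counted per sample. For each library, the deviation of each gene from its mean over all libraries was set against its log2 exonic length, and Pearson's r across genes is called the length trend here; genes are not independent replicates, and the value only describes a library. It lay between 0.04 and 0.56 at week 2 and between -0.55 and -0.13 at week 3, so long genes were relatively lower in all week 3 libraries. Markers of other cell types moved between the weeks as well. The summed level of 3 ovary markers was 3740 to 6715 counts per 1000000 (CPM) at week 2 and 1241 to 2987 at week 3, and that of 3 fat body markers was 267 to 1188 and then 88.1 to 202, with no listed marker at 0 in a whole group. Nearly all of the ovary sum came from the yolk protein gene Yp1, at 3507 to 6533 CPM at week 2. There nos was at 39.3 to 153 CPM and osk at 122 to 292. In CCM against control flies at week 2, the log2 fold change was 0.30 for Yp1, -0.97 for nos and -0.39 for osk, none called. The fat body sum came almost wholly from apolpp, at 87.4 to 1185 CPM. Lsp2 stood at 0.277 to 3.11 CPM, and Fbp1 had at most 4 reads in a sample. The summed level of 3 muscle markers was 1045 to 1290 CPM at week 2 and 1218 to 1597 at week 3, but Mhc fell (log2 fold change -1.21 in CCM and -0.97 in control flies) while Act88F rose (1.70 and 1.44), and up was not called. The marker levels were not adjusted for the length trend. The part of tissue composition in the values below was not tested.

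Per kilobase (kb) of exons, Thor was by far the most abundant of the 10 transcripts. Its level was 458 ± 25.6 CPM per kb in week 2 controls (SD, n = 3) and 854 ± 67.1 in week 3 CCM flies. ImpL2, foxo, Lnk, Ilp6 and Ilp2 followed at group means between 12 and 43.1 CPM per kb, and their order changed between groups. In week 3 CCM flies neither foxo and Lnk nor Lnk and ImpL2 differed beyond their spread, since their ranges overlapped. Chico ranked seventh in all 4 groups, with 7.65 ± 2.44 CPM per kb in week 2 CCM flies and 2.03 ± 0.391 in week 3 CCM flies. InR and Ilp3 were near 1 CPM per kb, with overlapping ranges except in week 3 CCM flies, where Ilp3 at 1.36 ± 0.224 stood above InR at 0.91 ± 0.129. Ilp5 was the lowest, at group means of 0.422 to 0.568 CPM per kb. These levels are a description and were not tested.

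**Figure D1:**
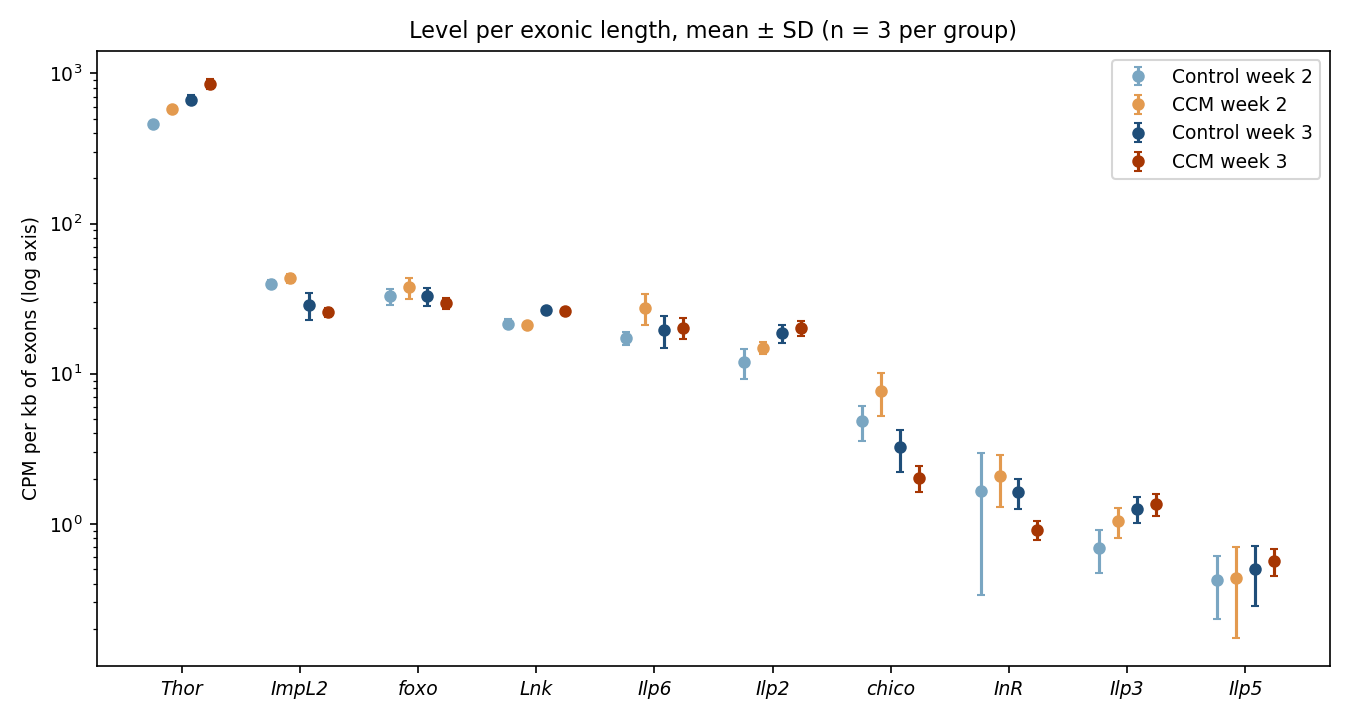
Level of the 10 genes per kilobase of exons in CPM per kb on a log axis, as mean ± SD over 3 samples for each of the 4 groups. Thor lies at 458 to 854 and Ilp5 at 0.422 to 0.568, and chico, seventh in order, has its highest mean (7.65) and its lowest (2.03) both in CCM flies.

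The effect of the light schedule was asked first, within each week, and that of age second, within each schedule; Ilp5 did not pass the filter on low counts, which leaves 9 genes in every test. At week 2 edgeR's quasi-likelihood test called 0 of the 9 genes between CCM and control flies at an adjusted p under 0.1, against a background of 0% of all features, and 3 of them had an unadjusted p under 0.05, beside 5.67% of all features. DESeq2 also called 0 of the genes. At week 3 it was 0 of 9 again, beside 0.0164% of all features, with 3 genes at an unadjusted p under 0.05 beside 12% of all features. Same-lettered CCM and control samples deviated together at week 3, and with the letter as a block 3 of the 9 genes were called, Thor higher and InR and chico lower in CCM flies, where 9.34% of all features were called. DESeq2 without the block called 2 of the genes at week 3, InR and Thor, beside 3.51% of the features it tested. DESeq2 was also the test of the study, whose list of genes differentially expressed at week 3 includes InR.

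Between weeks far more features were called, in the pathway as elsewhere. In control flies 4 of 9 genes were called, beside 31.3% of all features. Ilp2, Lnk and Thor rose with age (14% of all features were called higher) and ImpL2 fell (17.3% were called lower). In CCM flies 8 of 9 were called, beside 56% of all features. There Ilp2, Lnk and Thor rose again (26.4% called higher), and Ilp6, ImpL2, InR, chico and foxo fell (29.6% called lower). The median log2 fold change of the 9 genes was 0.18 in control flies and -0.41 in CCM flies, and that of all tested features was -0.03 in both. No gene of the 9 passed the test of the interaction between schedule and week, where edgeR called 0% of all features, DESeq2 called 0 of the genes and 2 of them, chico and Ilp6, had an unadjusted p under 0.05 (4.55% of all features). A call in CCM flies only therefore does not show that aging differed between the schedules. With 1 sample left out at a time, 1 to 4 of the 9 genes were called in control flies, where the fits without week 2 replicate A or any of the week 3 samples called 1. In CCM flies 5 to 8 were called, with 5 in the fits without week 2 replicate B or C. The comparisons share samples, since each group enters both a comparison of schedules and one of weeks.

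**Figure D2:**
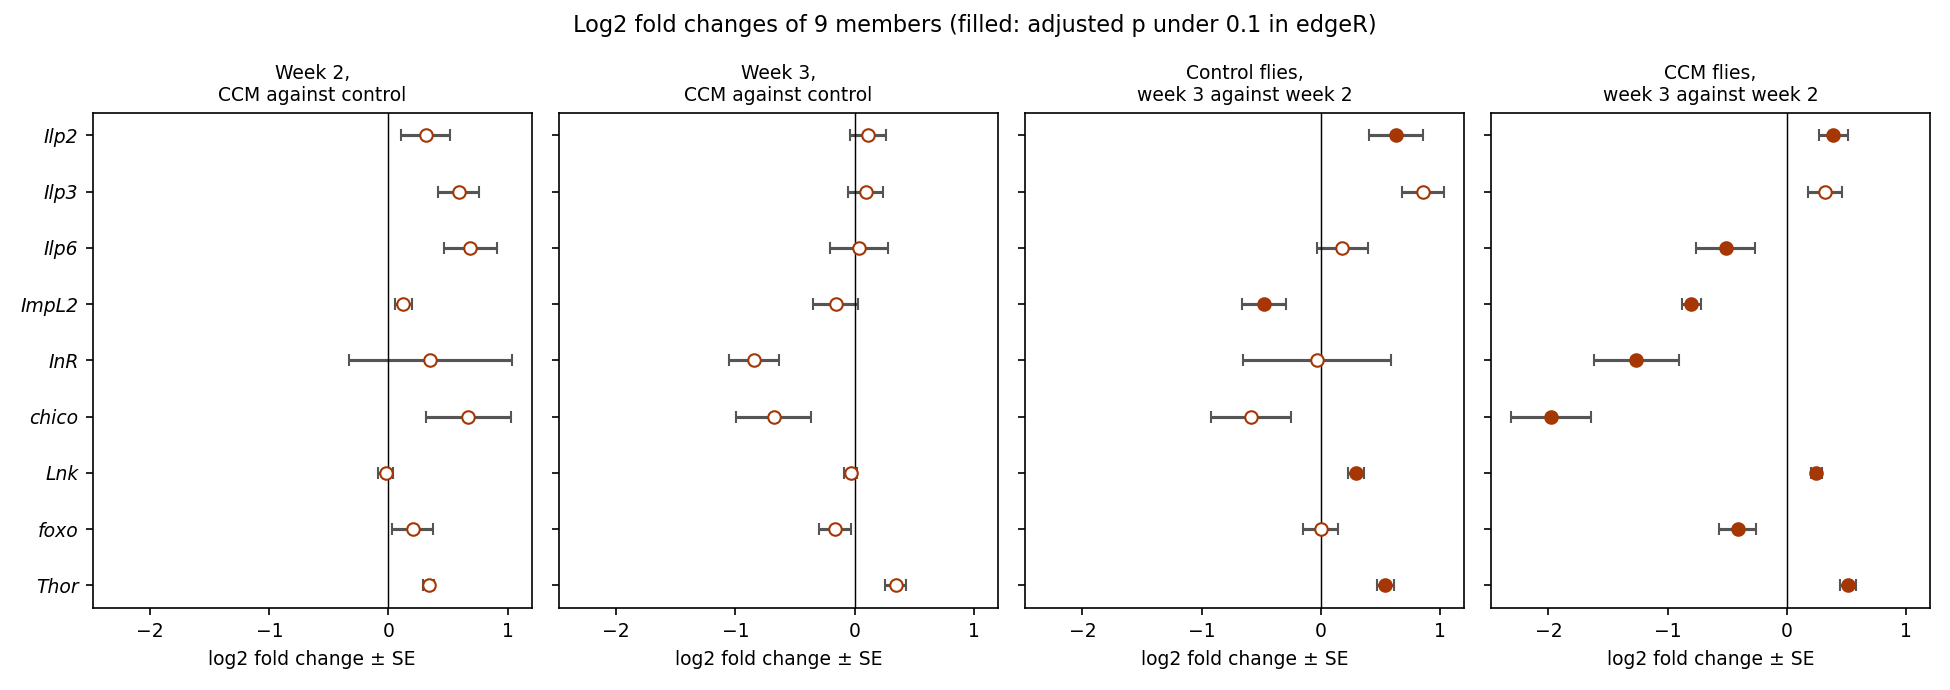
Log2 fold change of 9 genes in the 4 comparisons, with the standard error from the replicates' log2 CPM (n = 3 per group) and filled points for an adjusted p under 0.1 in edgeR. No point is filled at week 2 or week 3, 4 are filled in control flies and 8 in CCM flies, where chico lies farthest from 0 at -1.98.

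Among the peptides of the brain's insulin-producing cells, Ilp2 was the most abundant. It stood at 9.17, 8.96 and 5.90 CPM in week 2 controls and at 12.7, 10.6 and 14.0 in week 3 controls. In CCM flies the samples gave 10.7, 8.93 and 10.1 CPM at week 2 and 13.4, 12.0 and 15.2 at week 3. The weeks did not overlap under either schedule, while CCM and control samples overlapped at both weeks. The rise with age was 1.55-fold in control flies (log2 fold change 0.63 ± 0.22 SE, edgeR adjusted p = 0.0896) and 1.31-fold in CCM flies (0.39 ± 0.12, edgeR adjusted p = 0.0587). Both calls were near the threshold, and with length offsets the one in CCM flies was lost (edgeR adjusted p = 0.125). With 1 of 6 samples left out at a time, the call in control flies was made only without week 2 replicate B, and the adjusted p was 0.106 to 0.22 in the other 5 edgeR fits. In CCM flies it was lost without week 2 replicate B or C or week 3 replicate C, with edgeR adjusted p of 0.116 to 0.149. The summed level of 2 neurosecretory markers, amon and dimm, was 51.5 to 59.1 CPM at week 2 and 63.4 to 82.7 at week 3, nearly all of it from amon, which rose under both schedules. The other marker, dimm, stood at 0.166 to 0.736 CPM and was not called in CCM flies (log2 fold change -0.27). In control flies it was below the filter on low counts. The 4 markers of neurons in general went the other way. All 4 were called lower at week 3 in CCM flies, with a median log2 fold change of -1.44. In control flies 0 of the 4 were called, and the median was -0.57. The part of these markers in the level of Ilp2 was not tested.

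Ilp3, made by the same cells, was counted with only 9 to 25 reads per sample. Its level was 0.374, 0.489 and 0.701 CPM in week 2 controls against 1.05, 1.06 and 0.736 in week 3 controls, and these groups did not overlap. The log2 fold change of 0.86 ± 0.17 did not pass the threshold (edgeR adjusted p = 0.126). In CCM flies it was 0.658, 0.983 and 0.7 CPM at week 2 and 0.837, 1.17 and 1.06 at week 3, with overlap. Ilp5, the third peptide of these cells, had 2 to 7 reads in every sample, with 2 reads in 1 sample of each group other than week 3 CCM flies. At 0.0787 to 0.335 CPM it lay around the level of 3 counts, 0.13 to 0.17 CPM in these libraries, a floor that covers counting error only. No difference of Ilp5 between groups was detectable at this depth.

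**Figure D3:**
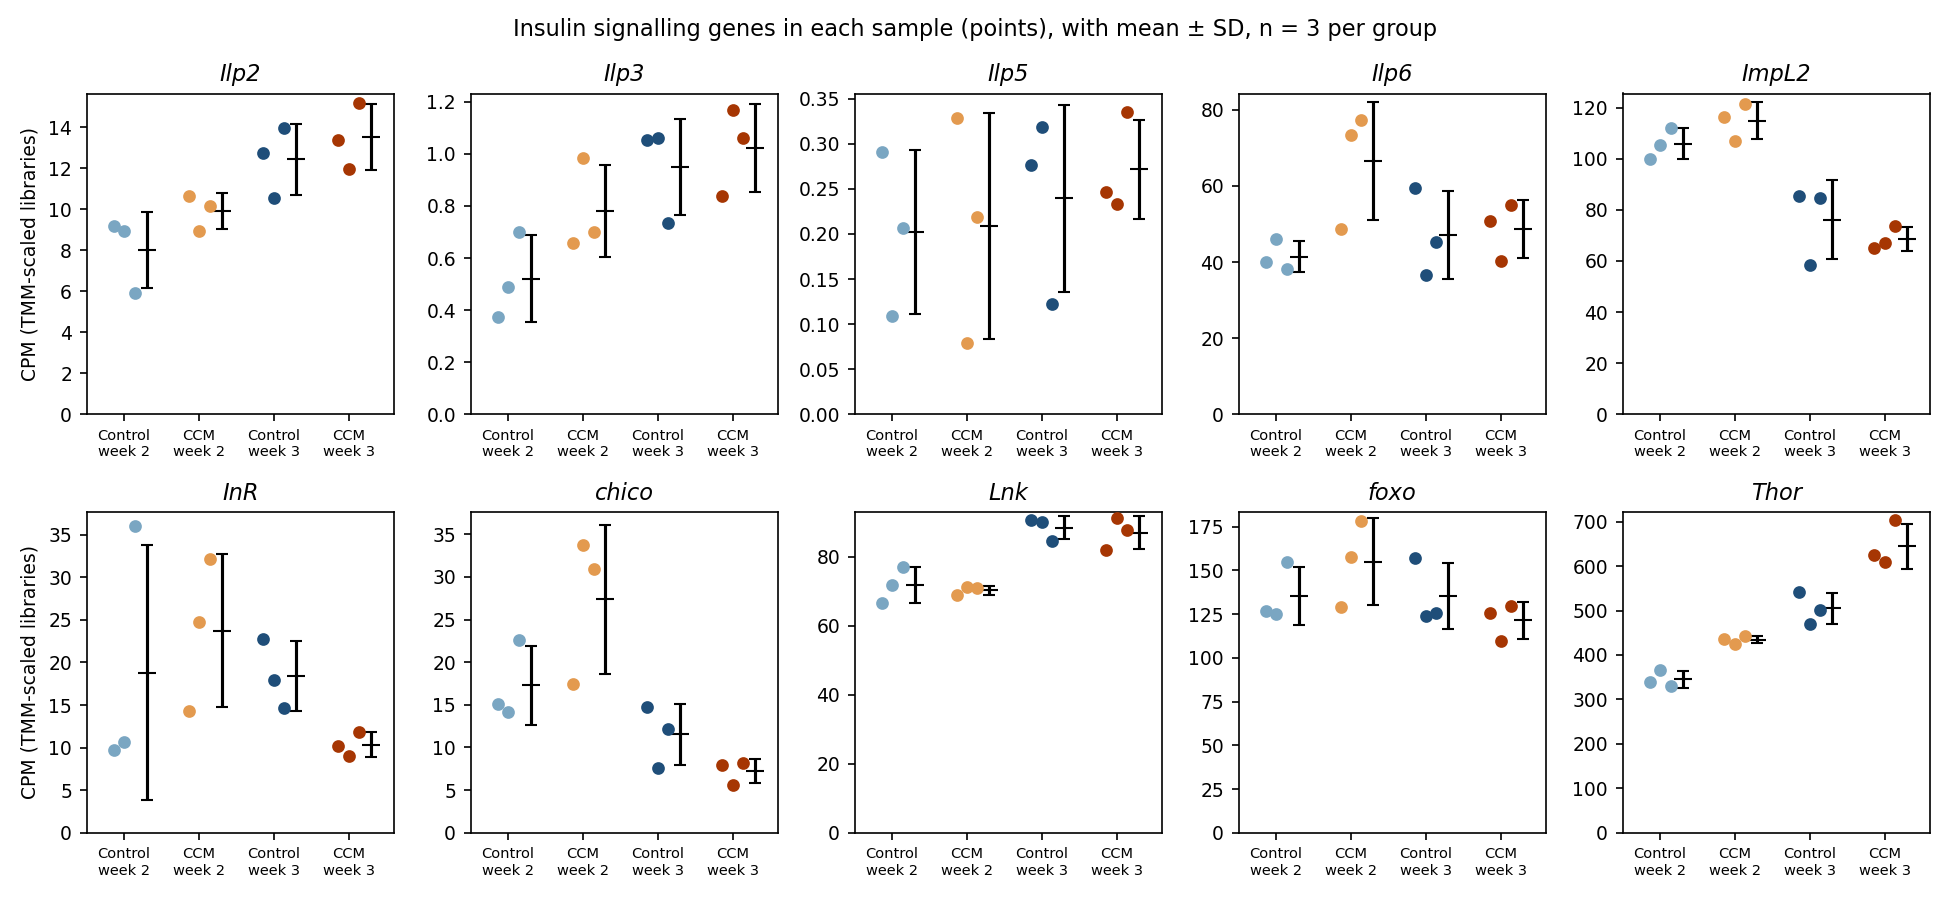
Level of the 10 genes in each of the 12 samples in CPM on TMM-scaled libraries, each axis starting at 0, with black marks for the mean ± SD (n = 3). Every week 3 point of Ilp2, Lnk and Thor lies above the week 2 points of the same schedule, and the CCM points of Thor lie above the control points of the same week.

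Ilp6, the fat body peptide, was highest in week 2 CCM flies. There its 3 samples gave 48.7, 73.5 and 77.2 CPM, all above the week 2 controls at 40.1, 46.0 and 38.2. At week 3 the samples were intermixed, with 50.7, 40.2 and 55.0 CPM in CCM flies and 59.4, 36.6 and 45.2 in controls. The week 2 difference was 1.61-fold (log2 fold change 0.69 ± 0.22, unadjusted p = 0.00778) but did not pass the adjustment over all features (edgeR adjusted p = 0.712). Ilp6 and Thor were the 2 of 9 genes whose week 2 groups did not overlap, while 13.4% of all features showed no overlap there. In CCM flies Ilp6 fell between the weeks by 0.51 ± 0.25 on the log2 scale (edgeR adjusted p = 0.0607), although the groups overlapped. Of 6 fits with a sample left out, those without week 2 replicate A or week 3 replicate C made the call, and the other 4 gave edgeR adjusted p of 0.126 to 0.211. With length offsets it was not called (edgeR adjusted p = 0.225). Fat body markers summed to 341 to 1188 CPM in week 2 CCM flies and 267 to 553 in week 2 controls, nearly all of it from apolpp. In week 3 CCM flies, which were other pools, they were 88.1 to 161 CPM, and their part in the Ilp6 values was not tested.

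Of the other peptides, Ilp1 had 1 read in 1 of the 12 samples and Ilp4 at most 4 reads in a sample. Ilp7, known from neurons of the ventral nerve cord, was counted with 8 to 18 reads per sample and was not called in any comparison. Ilp8, the relaxin-like peptide that acts through Lgr3, was the most abundant of these, with 79.8 to 99.7 CPM in week 2 CCM flies against 55.9 to 74.3 in week 2 controls (edgeR adjusted p = 0.712). Its week 3 controls ranged from 10.8 to 107 CPM, so a single group spanned all other samples. In CCM flies Ilp8 fell between the weeks by 0.74 on the log2 scale (edgeR adjusted p = 0.048), with overlapping groups.

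ImpL2, a secreted protein that binds insulin-like peptides and holds them from the receptor, fell with age under both schedules. In CCM flies it went from 116, 107 and 121 CPM to 64.9, 67.0 and 73.8. In control flies it went from 100, 105 and 112 CPM to 85.5, 58.3 and 84.5. Week 2 and week 3 samples did not overlap in either case, and CCM and control samples overlapped at both weeks. The fall was 0.80 ± 0.08 on the log2 scale in CCM flies (edgeR adjusted p = 0.00105), and it was called in 6 of 6 fits with a sample left out. With length offsets it was still called, at -0.56 (edgeR adjusted p = 0.00879). In control flies the log2 fold change was -0.48 ± 0.19 (edgeR adjusted p = 0.0767), and it was not called with length offsets (-0.25, edgeR adjusted p = 0.36). Nor was it called without any 1 control sample other than week 2 replicate B, with edgeR adjusted p of 0.111 to 0.156 in those 5 fits. The binding protein Sdr and the other 3 genes of its list, conv, Lgr3 and Lgr4, gave 0 calls wherever they were tested. Only 3 of the 4 passed the filter on low counts at week 3, where Lgr3 did not. In control flies between weeks 3 of the 4 were tested as well.

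InR, the receptor, was the gene whose values depended most on single libraries. Week 2 controls had 9.67, 10.6 and 36.1 CPM and week 2 CCM flies 14.3, 24.8 and 32.1. At week 3 the controls had 22.8, 17.9 and 14.7 CPM and the CCM flies 10.2, 8.96 and 11.9. Thus at week 3 every CCM sample was below every control, and 17.5% of all features showed no overlap in that comparison, while at week 2 the CCM samples lay within the range of the controls. The week 3 log2 fold change was -0.85 ± 0.21, a level 0.556 times that of controls (edgeR adjusted p = 0.19). With the replicate block it was -0.83 and called (edgeR adjusted p = 0.0435), and DESeq2 gave an adjusted p of 0.0135. With the block and length offsets together it was -0.40 and not called (edgeR adjusted p = 0.191).

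The 3 libraries with the highest InR level, 36.1, 32.1 and 24.8 CPM, had the 3 highest length trends of the 12, at 0.56, 0.40 and 0.48. The 2 lowest trends, -0.55 and -0.51, belonged to week 3 CCM libraries with 10.2 and 8.96 CPM of InR. Other libraries departed from this order. Week 2 control replicate A had a trend of 0.30 but only 9.67 CPM of InR. Week 3 control replicate A, at -0.13, had 22.8 CPM, above the 10.6 CPM of week 2 control replicate B at 0.04. The part of the length trend in the InR level was not tested. In CCM flies InR fell between the weeks by 1.26 ± 0.35 on the log2 scale (edgeR adjusted p = 0.00909), but with length offsets the value turned to 0.28 (edgeR adjusted p = 0.193). In control flies it was -0.03 ± 0.62, and the offsets moved it to 1.02, now called higher at week 3 (edgeR adjusted p = 0.0258). Without the week 2 control replicate C, the control value was 0.84 and also called (edgeR adjusted p = 0.0472). The sign of the InR value with age thus changed with the handling of length, in both schedules.

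**Figure D4:**
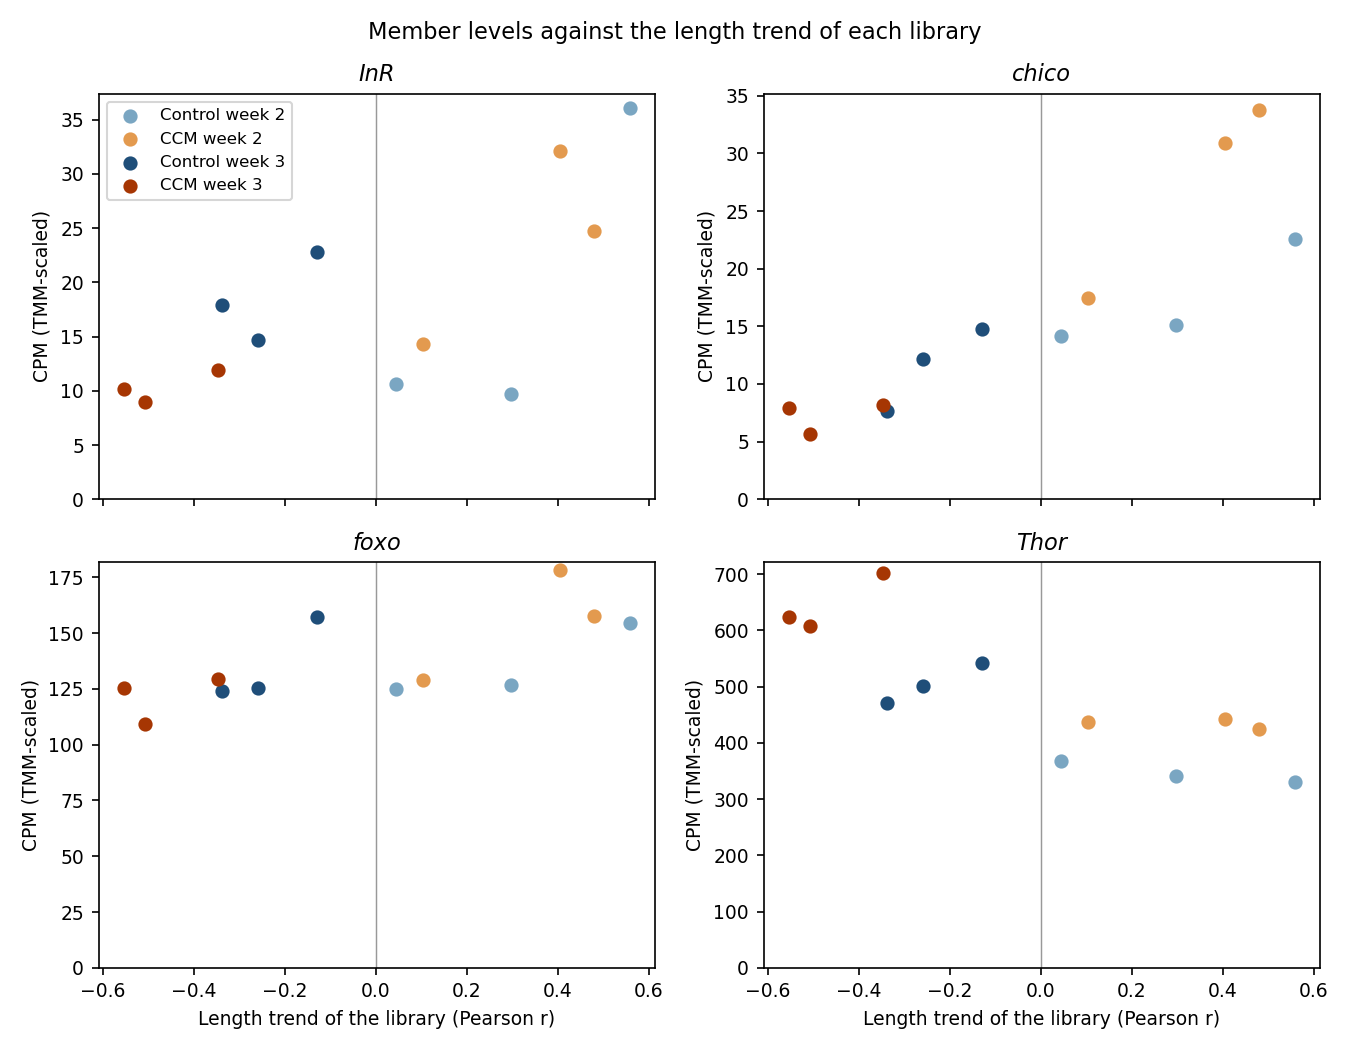
Level of InR, chico, foxo and Thor in CPM in the 12 libraries against the length trend of the library, Pearson's r between deviation from the mean and log2 exonic length. The week 2 libraries lie from 0.04 to 0.56 and the week 3 libraries from -0.55 to -0.13. The highest InR level (36.1) is in the library with the highest trend, while a week 2 control at 0.30 has 9.67.

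Chico, the insulin receptor substrate of the fly, showed the strongest fall among the 9 genes. In CCM flies it dropped from 17.4, 33.8 and 30.9 CPM at week 2 to 7.93, 5.65 and 8.20 at week 3. Every week 3 sample was below every week 2 sample, at 0.254 times the level (log2 fold change -1.98 ± 0.33, edgeR adjusted p = 0.00152). All 6 fits with a sample left out called it, at -2.23 to -1.77. It was also called with length offsets, at -1.50 (edgeR adjusted p = 0.00317). In control flies the levels were 15.1, 14.2 and 22.6 CPM at week 2 and 14.8, 7.65 and 12.2 at week 3, and these groups overlapped. The log2 fold change there was -0.59 ± 0.34 (edgeR adjusted p = 0.167), and it was called only without week 2 control replicate B (-0.77, edgeR adjusted p = 0.0948). The difference between these effects, the interaction, was -1.33 ± 0.47 on the log2 scale with an unadjusted p of 0.00865 and did not pass the adjustment (edgeR adjusted p = 0.913).

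Between schedules, chico overlapped at both weeks. At week 2 its mean was 1.59 times that of controls (log2 fold change 0.67 ± 0.36, edgeR adjusted p = 0.712). At week 3 it was 0.625 times that of controls (-0.68 ± 0.31, edgeR adjusted p = 0.367). With the block the week 3 value was -0.65 and called (edgeR adjusted p = 0.0584), and with the block and length offsets -0.49 and not called (edgeR adjusted p = 0.138). Neuron markers summed to 143 to 238 CPM in week 2 CCM flies and 88.8 to 96.7 in week 3 CCM flies. Of these, nSyb alone stood at 83.6 to 112 CPM at week 2 and 51.7 to 63.8 at week 3. In control flies the neuron sum was 123 to 207 CPM at week 2 and 104 to 152 at week 3. Ovary markers in CCM flies went from 4837 to 6715 CPM down to 1241 to 2987, nearly all of it from Yp1. All 3 of them were called lower at week 3. The part of both marker sets in the level of chico was not tested.

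Lnk, an SH2B-family adaptor that acts with chico below the receptor, moved the other way. Its week 2 samples lay between 66.7 and 77.0 CPM and its week 3 samples between 81.9 and 91.2, over both schedules and without overlap. The rise was 1.23-fold in control flies (log2 fold change 0.30 ± 0.07, edgeR adjusted p = 0.0962) and 1.19-fold in CCM flies (0.25 ± 0.05, edgeR adjusted p = 0.0418). With length offsets both were larger and called, at 0.62 (edgeR adjusted p = 0.0224) and 0.65 (edgeR adjusted p = 0.00257). In control flies the call was lost without any 1 sample other than week 2 replicate C, with edgeR adjusted p of 0.173 to 0.29 in those 5 fits. CCM and control samples of Lnk were intermixed, with log2 fold changes of -0.02 ± 0.06 at week 2 and -0.03 ± 0.06 at week 3.

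**Figure D5:**
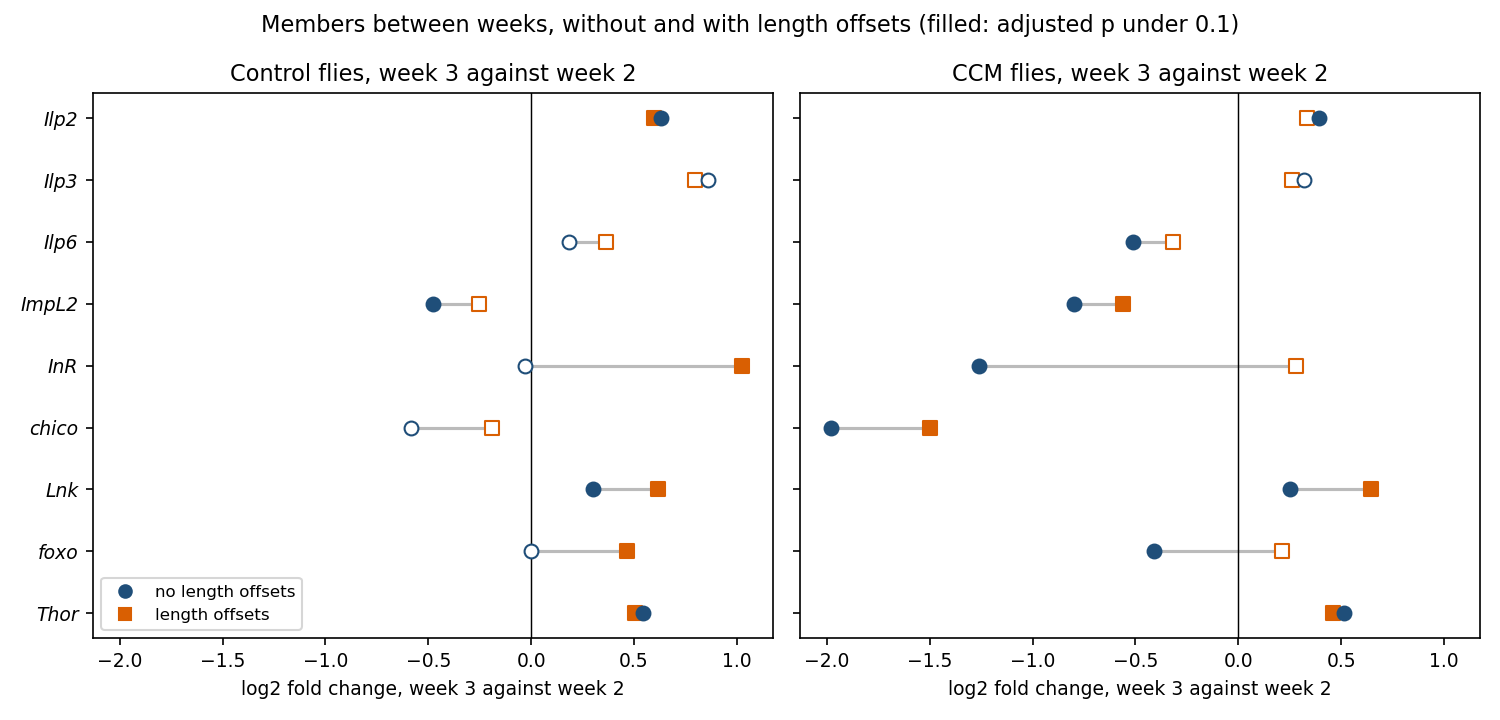
Log2 fold change of 9 genes from week 2 to week 3 in control flies (left) and CCM flies (right), without length offsets (circles) and with them (squares), filled where the adjusted p was under 0.1 in edgeR. InR moves from -0.03 to 1.02 and from -1.26 to 0.28, chico in CCM flies stays called at -1.98 and -1.50, and Thor is called in all 4 cases.

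The transcript of foxo itself stood between 109 and 178 CPM in all 12 samples. They gave 127, 125 and 155 CPM in week 2 controls and 157, 124 and 125 in week 3 controls (log2 fold change -0.00028 ± 0.15, edgeR adjusted p = 0.999). With length offsets the control value was 0.46 and called higher at week 3 (edgeR adjusted p = 0.0735). In CCM flies they gave 129, 158 and 178 CPM at week 2 and 125, 109 and 129 at week 3. This fall of 0.41 ± 0.15 on the log2 scale was called (edgeR adjusted p = 0.0425), but the ranges overlapped slightly, and the call was made in the fits without week 2 replicate A or week 3 replicate C and lost without any other sample (edgeR adjusted p of 0.11 to 0.17). With length offsets the CCM value was 0.21 and not called (edgeR adjusted p = 0.273). Foxo is regulated mainly by its place in the cell, which was not measured here.

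Thor was higher in CCM flies than in controls at both weeks and rose with age under both schedules, without any overlap of samples. At week 2 it was 437, 426 and 442 CPM in CCM flies against 340, 367 and 330 in controls. At week 3 it was 624, 608 and 703 CPM in CCM flies against 542, 471 and 502 in controls. The 4 groups therefore lay in separate ranges, week 2 controls lowest and week 3 CCM flies highest. The excess in CCM flies was 1.26-fold at week 2 (log2 fold change 0.34 ± 0.05, unadjusted p = 0.0145, edgeR adjusted p = 0.712) and 1.27-fold at week 3 (0.35 ± 0.09, unadjusted p = 0.00963, edgeR adjusted p = 0.269), so neither passed the adjustment. With the replicate block the week 3 value of 0.35 was called (edgeR adjusted p = 0.0492), and DESeq2 gave an adjusted p of 0.0433. With the block and length offsets it was 0.29 and not called (edgeR adjusted p = 0.17).

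With age Thor rose 1.46-fold in control flies (log2 fold change 0.54 ± 0.07, edgeR adjusted p = 0.0278) and 1.43-fold in CCM flies (0.51 ± 0.07, edgeR adjusted p = 0.00287). Both rises were called in all 6 fits with a sample left out and with length offsets, and the control rise was not called with length offsets and the replicate block together (0.50, edgeR adjusted p = 0.174). Their difference was 0.02 ± 0.10 on the log2 scale (edgeR adjusted p = 0.988). Of the 9 genes, 2 had groups apart at week 3 (InR and Thor), 5 in control flies between weeks and 6 in CCM flies between weeks, beside 43.8% and 62.6% of all features for the last pair.

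The other genes of the pathway were read from lists chosen for their known roles. Their counts from week 2 to week 3 stand beside 29.6% of all features called lower and 26.4% higher in CCM flies, and 17.3% lower and 14% higher in control flies. In CCM flies the branch from PI3 kinase to AKT had 10 of 12 tested genes called lower and 0 higher from week 2 to week 3, with a median log2 fold change of -0.72 beside -0.03 for all features. In control flies 4 of the 12 were lower and 0 higher. Pi3K21B, the regulatory subunit of PI3 kinase, fell from 28.8 to 39.5 CPM at week 2 to 10.3 to 12.5 at week 3 in CCM flies (log2 fold change -1.65 ± 0.16, edgeR adjusted p = 0.00101). In control flies its log2 fold change was -1.38 ± 0.36 (edgeR adjusted p = 0.0275), and -0.74 with length offsets, still called. Pi3K92E, the catalytic subunit, fell by 1.42 ± 0.24 in CCM flies (edgeR adjusted p = 0.00174) and by 1.16 ± 0.23 in control flies (edgeR adjusted p = 0.027). With length offsets Pi3K21B was at -0.84 and Pi3K92E at -0.62 in CCM flies, both still called. Ptp61F, a phosphatase of the pathway with 6069 exonic bases, went from -1.03 to -0.02 with the offsets in CCM flies and lost its call. In control flies it went from -1.01 (edgeR adjusted p = 0.0416) to -0.24 with the offsets and lost its call there too.

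In the TOR branch 9 of 19 tested genes fell and 2 rose in CCM flies, and 6 fell and 3 rose in control flies, where the share that rose was close to that of all features. Tor, the kinase, fell by 1.61 ± 0.15 on the log2 scale in CCM flies and by 1.27 ± 0.25 in control flies (edgeR adjusted p = 0.00101 and 0.027). Its negative regulators Tsc1 and gig fell too, by 1.29 ± 0.08 and 1.14 ± 0.11 in CCM flies. In control flies Tsc1 and gig were at -0.98 ± 0.26 and -0.90 ± 0.14 (edgeR adjusted p = 0.0309 and 0.027). With length offsets the CCM values were -0.37 for Tor and -0.74 for Tsc1, both called, and -0.17 for gig, which was not. The control values with offsets were -0.46 for Tor and -0.52 for Tsc1, both called, and -0.23 for gig, which was not. Of 7 genes in the branch from Ras to MAPK, 4 fell and 1 rose in CCM flies, and 2 fell and 2 rose in control flies. Sos, the exchange factor for Ras, fell by 1.44 ± 0.22 and 1.34 ± 0.21 in CCM and control flies, and by 0.48 and 0.65 with length offsets, still called. Csw, a phosphatase of 8732 exonic bases, was at -0.46 in CCM flies without length offsets and at 0.83 with them, called both times. Of the remaining genes named by rule, the adaptor drk fell by 0.47 ± 0.11 in CCM flies, and in control flies the kinase Raf fell by 0.58 ± 0.16 while rl, the fly ERK, rose by 0.42 ± 0.15. With length offsets drk (-0.16) and Raf (-0.08) lost their calls and rl, at 1.19, was called.

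Among genes that foxo is known to regulate, 4 of 7 tested fell and 2 rose in CCM flies, and in control flies 0 fell and 2 rose. The share that rose in CCM flies was close to that of all features. The small heat shock protein l(2)efl rose under both schedules, from 84.9 to 127 CPM up to 196 to 213 in CCM flies and from 59.8 to 103 CPM up to 130 to 182 in control flies. The glucosidase tobi, a target of glucagon-like and insulin signals, rose by 0.81 ± 0.03 in control flies (edgeR adjusted p = 0.027). The activin-like ligand daw and the JNK phosphatase puc fell by 0.95 ± 0.23 and 0.40 ± 0.11 in CCM flies (edgeR adjusted p = 0.00498 and 0.0172). With length offsets daw was at -0.57 and called, and puc was at -0.04 and not called.

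Among signals that act on the insulin-producing cells, read against the same shares of all features, week 3 had 4 of 13 tested genes higher and 0 lower in control flies and 6 higher and 1 lower in CCM flies. Their median log2 fold changes were 0.45 and 0.36, beside -0.03 for all features. Lst (limostatin), a peptide that restrains insulin secretion, rose in control flies from 161 to 220 CPM at week 2 to 295 to 424 at week 3 (log2 fold change 0.97 ± 0.21, edgeR adjusted p = 0.027). Akh, the glucagon-like hormone, rose by 0.74 ± 0.24 in control flies (edgeR adjusted p = 0.0524). Gbp1, a growth-blocking peptide of the fat body, rose by 0.64 ± 0.16 in CCM flies (edgeR adjusted p = 0.00666), and grnd, the receptor of the TNF egr, rose under both schedules by 0.90 ± 0.22 and 0.57 ± 0.13 in control and CCM flies. The short neuropeptide sNPF rose by 0.33 ± 0.07 in CCM flies (edgeR adjusted p = 0.0246). Genes given for 1 schedule were named by rule, and their means also rose under the other. In CCM flies the mean of Lst went from 246 to 329 CPM and that of Akh from 19.2 to 31.2. In control flies the mean of Gbp1 went from 24.8 to 36.4 CPM and that of sNPF from 21.9 to 33.8.

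Between schedules none of these lists had a gene past the threshold at week 2 or week 3 in edgeR without the block, and at week 3 the PI3 kinase list had 5 of 12 genes at an unadjusted p under 0.05, beside 12% of all features. With the replicate block at week 3, the TOR list had 2 of 19 genes lower in CCM flies, a share near the 9.34% of all features called in either direction, and Pi3K21B of the PI3 kinase list was lower too. These 3 genes are named after their values were seen. Pi3K21B was at a log2 fold change of -0.56 (edgeR adjusted p = 0.0439). The 2 genes of the TOR list were scyl at -0.86 (edgeR adjusted p = 0.0326) and chrb at -0.74 (edgeR adjusted p = 0.0297), a pair of proteins that restrain TOR under stress. With the block and length offsets together scyl (-0.74) and chrb (-0.46) were called and Pi3K21B (-0.32) was not.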

How the data were processed

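Mapping by the authors used STAR and the dm6 assembly. Counting used MMquant and an annotation limited to coding genes, and reads shared by several genes went to a merged gene. Whether counting used strand is not given in the sources used here. The deposited files hold whole, unnormalized counts for each feature. Gene positions and exonic lengths came from the Ensembl annotation of the same assembly, matched by identifier (13026 of 13240 single genes). InR carries an older identifier in the counts and was recognised by its counts, which after size-factor scaling match, at the precision given, those listed for InR in a table of the study. Of the listed genes, susi, S6k, Lobe, Pepck1, Phm, FASN1 and vas were not used.

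Counts were tested in R 4.3.3 with edgeR 4.0.16 (filterByExpr, TMM, glmQLFit and glmQLFTest) on the 6 samples of each comparison and on all 12 for the interaction, with Benjamini-Hochberg adjustment over all features kept and a threshold of 0.1, as in the methods of the study. DESeq2 1.42.0 (unshrunken) was an alternative here, whereas the study itself tested with DESeq2 and gave shrunken fold changes. Log2 fold changes are edgeR's, their SE is that of the replicates' log2(CPM + 0.5), and CPM use TMM-scaled libraries of all 12 samples. With libraries of 17842804 to 23687266 counts, a gene with 3 counts stood at no more than 0.17 CPM. Alternatives were RLE scaling, no filter, the replicate block, length offsets (lowess, span 0.3) alone and with the block, all samples in a single fit, an adjusted p under 0.05 and each sample left out in turn. The letters A to C in the labels gave the pairing. At week 3 a CCM sample and the control of the same letter had deviations from their group means that correlated across genes at 0.27, 0.58 and 0.54, each over 0.1, so values with the block are given beside week 3 results where the call changed. Nothing in the labels says whether pools came from separate cohorts, and p-values measure only the spread between these samples.

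The 10 genes and the pathway lists were chosen with earlier results of these data known. Text names the 10 genes throughout and, from each list, up to 3 called genes whose groups did not overlap, in order of p, plus Ilp1, Ilp4, Ilp7 and Ilp8 by level. Other results from the lists were left out. The fits were tested on simulated data. Tables and figures were made in Python 3.11.15 with pandas 2.3.3 and matplotlib 3.10.9.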

Additional observations from a re-analysis of the deposited data

How the results depend on the processing

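The 9 tested genes gave 543 of 629 alternative log2 fold changes on the same side of the threshold and with the same sign, 37 that lost a call, 7 that gained a call and 42 with another sign, and the cause of these changes was not tested. At week 3 the number of the 9 genes called went from 0 to 3 with the replicate block and 2 in DESeq2. It went from 4 to 2 with the block and 1 at an adjusted p under 0.05 in control flies, and from 8 to 4 with length offsets, alone or with the block, in CCM flies. Leaving out a sample gave 1 to 4 in control flies and 5 to 8 in CCM flies. Features called at week 2, 0 at first, were 7 in DESeq2, 2 in the fit of all 12 samples and 41 with length offsets and the block. At week 3 the 2 features became 1140 with the block, 353 in DESeq2, 470 with length offsets and the block, 1 at the stricter threshold, 0 with length offsets alone or all 12 samples in a single fit, and 0 to 5 without a sample. In control flies they were 2047 at the stricter threshold and 1315 to 4953 without a sample, and DESeq2 called 1 in the interaction.

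Signs changed with length offsets, without and with the block, for Lnk at week 2 (0.029, 0.034) and week 3 (0.11, 0.11) and for foxo at week 3 (0.037, 0.036). With age they changed for InR (1.02, 1.12) and foxo (0.46, 0.46) in control flies and for InR (0.28, 0.29) and foxo (0.21, 0.21) in CCM flies. In control flies InR was also 0.24 with the block, and foxo was 0.0021 with RLE scaling, 0.0027 in DESeq2 and 0.0011 in the fit of all samples. In the interaction Lnk was -0.018 with RLE scaling and -0.017 in DESeq2, and Thor -0.0006 with RLE scaling. Without a sample, values crossed 0 for Lnk at week 2 (-0.067 to 0.0058), and at week 3 for Ilp3 (-0.058 to 0.22), Ilp6 (-0.11 to 0.24) and Lnk (-0.066 to 0.0066). They also did in control flies for Ilp6 (-0.019 to 0.34), InR (-0.37 to 0.84) and foxo (-0.12 to 0.083), and in the interaction for Ilp2 (-0.29 to 0.0068), Lnk (-0.035 to 0.094) and Thor (-0.055 to 0.077).

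Replicate letters did not pair the other groups. Correlations of same-lettered samples were -0.41 to 0.11 at week 2, -0.12 to 0.12 in control flies and -0.36 to -0.09 in CCM flies, and 0, 2 and 0 of 6 samples correlated best with their own letter. The block moved the features called from 3821 to 3032 in control flies and from 6919 to 5715 in CCM flies, where it left 7 genes called, and from 0 to 0 at week 2 and in the interaction. Levels per length moved by less than their SD under RLE scaling in all 40 cases. Depth limits Ilp5, with 2 to 7 reads per sample, and Ilp3, with 9 to 25.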
